A study of Mus musculus with 45 samples.

Results

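Il6, Tnf, Osm and Il12b encode 4 cytokines or cytokine subunits that activated macrophages can release. They were taken by name, with 1 probe set each, and are 4 of 19752 genes with a single symbol on the array and 4 of the 11074 genes that passed the filter on dim signal. Each gene was represented by its only single-symbol probe set: 10520452 for Il6, 10450501 for Tnf, 10373912 for Osm and 10375331 for Il12b. The filter asked for a mean of log2 7.57 or more, the median of all values, in 1 group or more. Values are log2 intensities, and differences are log2 differences ± SE between group means.

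The study profiled muscle macrophages of male C57Bl6 mice, sorted after intramuscular cardiotoxin, a toxin that destroys muscle fibres and sets off their regeneration. Mice carried Foxp3.DTR (DTR+) or did not (DTR-); in this transgene the Foxp3 promoter drives the diphtheria toxin (DT) receptor, so that the toxin removes cells that use the promoter, chiefly regulatory T cells. All cells were sorted as Ly6g- CD11b+ and positive for the macrophage surface protein encoded by Adgre1, and divided into MHCII+ and MHCII- cells by the titles, which gave 18 groups and 45 arrays. The series title names restraint of interferon-gamma by regulatory T cells, and its effect on macrophages, as the subject.

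At day 7 the set labelled 24 h DT, from mice of 8 weeks, held 2 DTR+ and 4 DTR- MHCII+ arrays, and 3 DTR+ and 3 DTR- MHCII- arrays. The day 7 set labelled 8 h DT, from mice of 12 weeks, held 3 MHCII+ arrays of each genotype, with 3 DTR+ and 4 DTR- arrays of MHCII- cells. A further day 7 set, called untimed here because its labels name no DT hours, came from mice of 10 weeks and held 2 DTR+ and 2 DTR- arrays, all MHCII+. Day 1 arrays, labelled 24 h DT and from mice of 8 weeks, numbered 2 for each genotype and subset. Day 0 (uninjured, 10 weeks) and day 4 (8 weeks) each held 2 DTR- arrays per subset, without DT hours. The sort of the 8 h, day 1 and day 4 samples also excluded SiglecF+ cells, and that of the day 1 and day 4 samples lists CD45+ DAPI- as well. The labels do not give the moment from which the hours are counted, nor whether each sample is a different animal. The p-values therefore reflect only how far these samples spread, which may be technical. That spread was shared over all 18 groups, although it differed between sets. The median within-group SD of the tested genes was 0.072 in the untimed set, 0.084 at day 1 and 0.204 in the 24 h set. For Il6 it ran from 0.276 at day 4 to 0.646 in the 24 h set. A shared spread can thus be too wide for the quieter sets and too narrow for the 24 h set.

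A marker entry in the labels reads MHCII- for all arrays except the day 0 MHCII+ ones, against the titles. H2-Ab1, an MHC class II chain, ranged from 13.67 to 14.01 (log2) over 24 arrays with MHCII+ titles and from 7.81 to 12.45 over 21 with MHCII- titles, so the titles were used. The sort gene Adgre1 lay between 12.40 and 13.24 in both subsets. Arrays of 1 group correlated at 0.974 to 0.998 over the 19752 genes with a single symbol. The genotype was not checked on these arrays. With 2 to 4 arrays per group, their number limits the precision.

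Libraries that stood apart were found from marker lists. The day 0 MHCII- replicate 1 array had a mean of 10.44 over 8 neutrophil markers, against 7.16 in replicate 2 and group means of 6.05 to 6.78 in the other 17 groups. The 24 h DTR- MHCII+ replicate 3 array stood at 7.29 on the same list, against 6.08 to 6.16 in its 3 companions. The 8 h DTR+ MHCII+ replicate 1 array had a mean of 9.71 over the measured T cell markers, against 8.22 and 8.27 in its companions, and its immediate-early and heat-shock genes were at 11.57 against 12.31 and 12.06. The 24 h DTR+ MHCII- replicate 3 array had a macrophage marker mean of 12.15 against 12.58 and 12.53 in its companions, a dendritic cell marker mean of 7.69 against 7.22 and 7.21, and a mean over JAK-STAT genes of 9.86 against 10.39 and 10.31. Calls that rest on these 4 arrays, and the main Il6 differences that use them, are given with and without them.

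Interleukin-6 binds its receptor Il6ra, and the pair engages the signal chain gp130 (Il6st), which works through JAK kinases and STAT3. Oncostatin M (Osm), a member of the same family made largely by myeloid cells, also signals through gp130, joined to its own receptor Osmr or to Lifr. Tumour necrosis factor (Tnf) is made as a membrane protein, is cut free by the protease Adam17 and binds Tnfrsf1a or Tnfrsf1b. Il12b encodes p40, which pairs with the Il12a product to form interleukin-12, an inducer of interferon-gamma in T and NK cells, or with the Il23a product to form interleukin-23. In injured muscle such cytokines act on satellite cells, the stem cells of the fibres, and on other leukocytes.

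Promoters are shown because Il6 and Il12b passed the test as higher in MHCII+ cells in some comparisons, as described further on, with Tnf beside them. Promoter sequences from RefSeq entries on GRCm38.p6 were at hand for 3 of the 4 genes: Il6, Tnf and Il12b. Osm has a RefSeq gene entry but no promoter sequence among those used. Each sequence below is the 250 bases before the RefSeq start, 5′ to 3′ on the gene's strand, with matches to the searched motifs in capitals. The Il6 window is chr5:30012864-30013113 on the plus strand, the Tnf window chr17:35202008-35202257 on the minus strand and the Il12b window chr11:44399813-44400062 on the plus strand.
Il6: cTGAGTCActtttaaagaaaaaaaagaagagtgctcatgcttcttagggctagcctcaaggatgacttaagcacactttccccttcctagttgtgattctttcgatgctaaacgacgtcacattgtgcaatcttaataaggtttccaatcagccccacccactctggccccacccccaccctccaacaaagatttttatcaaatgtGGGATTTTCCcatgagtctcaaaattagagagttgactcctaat
Tnf: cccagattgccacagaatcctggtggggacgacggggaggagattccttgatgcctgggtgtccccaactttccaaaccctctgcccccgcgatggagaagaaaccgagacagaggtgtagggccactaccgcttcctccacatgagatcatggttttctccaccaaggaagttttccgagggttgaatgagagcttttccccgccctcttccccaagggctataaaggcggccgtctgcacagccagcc
Il12b: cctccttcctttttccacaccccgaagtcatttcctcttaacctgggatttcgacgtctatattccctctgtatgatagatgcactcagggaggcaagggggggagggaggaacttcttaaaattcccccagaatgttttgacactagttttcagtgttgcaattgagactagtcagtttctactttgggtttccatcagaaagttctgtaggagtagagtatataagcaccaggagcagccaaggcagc

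Both strands were searched for GGGRNWYYCC, a kappaB motif, the site type bound by NF-kB dimers, and for TGANTCA, the AP-1 motif. R is A or G, W is A or T, Y is C or T and N is any base. The Il6 window held GGGATTTTCC, a kappaB match at -44 to -35 relative to the start, and TGAGTCA, an AP-1 match at -249 to -243 that reads as a match on both strands; the 2 matches do not overlap. Neither motif was found in the Tnf or Il12b window. Of 32851 promoter windows of the same length, 3.90% held a kappaB match and 6.75% an AP-1 match. A match says only that these letters are present. The lack of a match does not show that a site is missing, as sites that depart from these letters were not searched for.

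Of the 4 genes, Il6 varied most between groups. Its highest group mean lay 35.9-fold above its lowest on the linear scale, against 2.38-fold for Osm, 1.78-fold for Tnf and 1.76-fold for Il12b. Single arrays ran from log2 5.52 to 11.28 for Il6, 11.14 to 12.19 for Tnf, 10.44 to 12.00 for Osm and 6.71 to 7.73 for Il12b. Group means of Tnf and Osm passed the filter level in 18 of 18 groups, those of Il6 in 11 and those of Il12b in 2. The 2 Il12b groups were day 0 MHCII+ cells (7.64) and untimed day 7 DTR+ MHCII+ cells (7.65). Il12b values, and those of Il6 in the 7 groups below that level, all MHCII-, therefore lie in the dim range of the array, where real differences are compressed. The lower end of the 35.9-fold Il6 range is such a group. The samples are bulk: fewer cells that make a transcript and less of it per cell cannot be told apart.

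**Figure D1:**
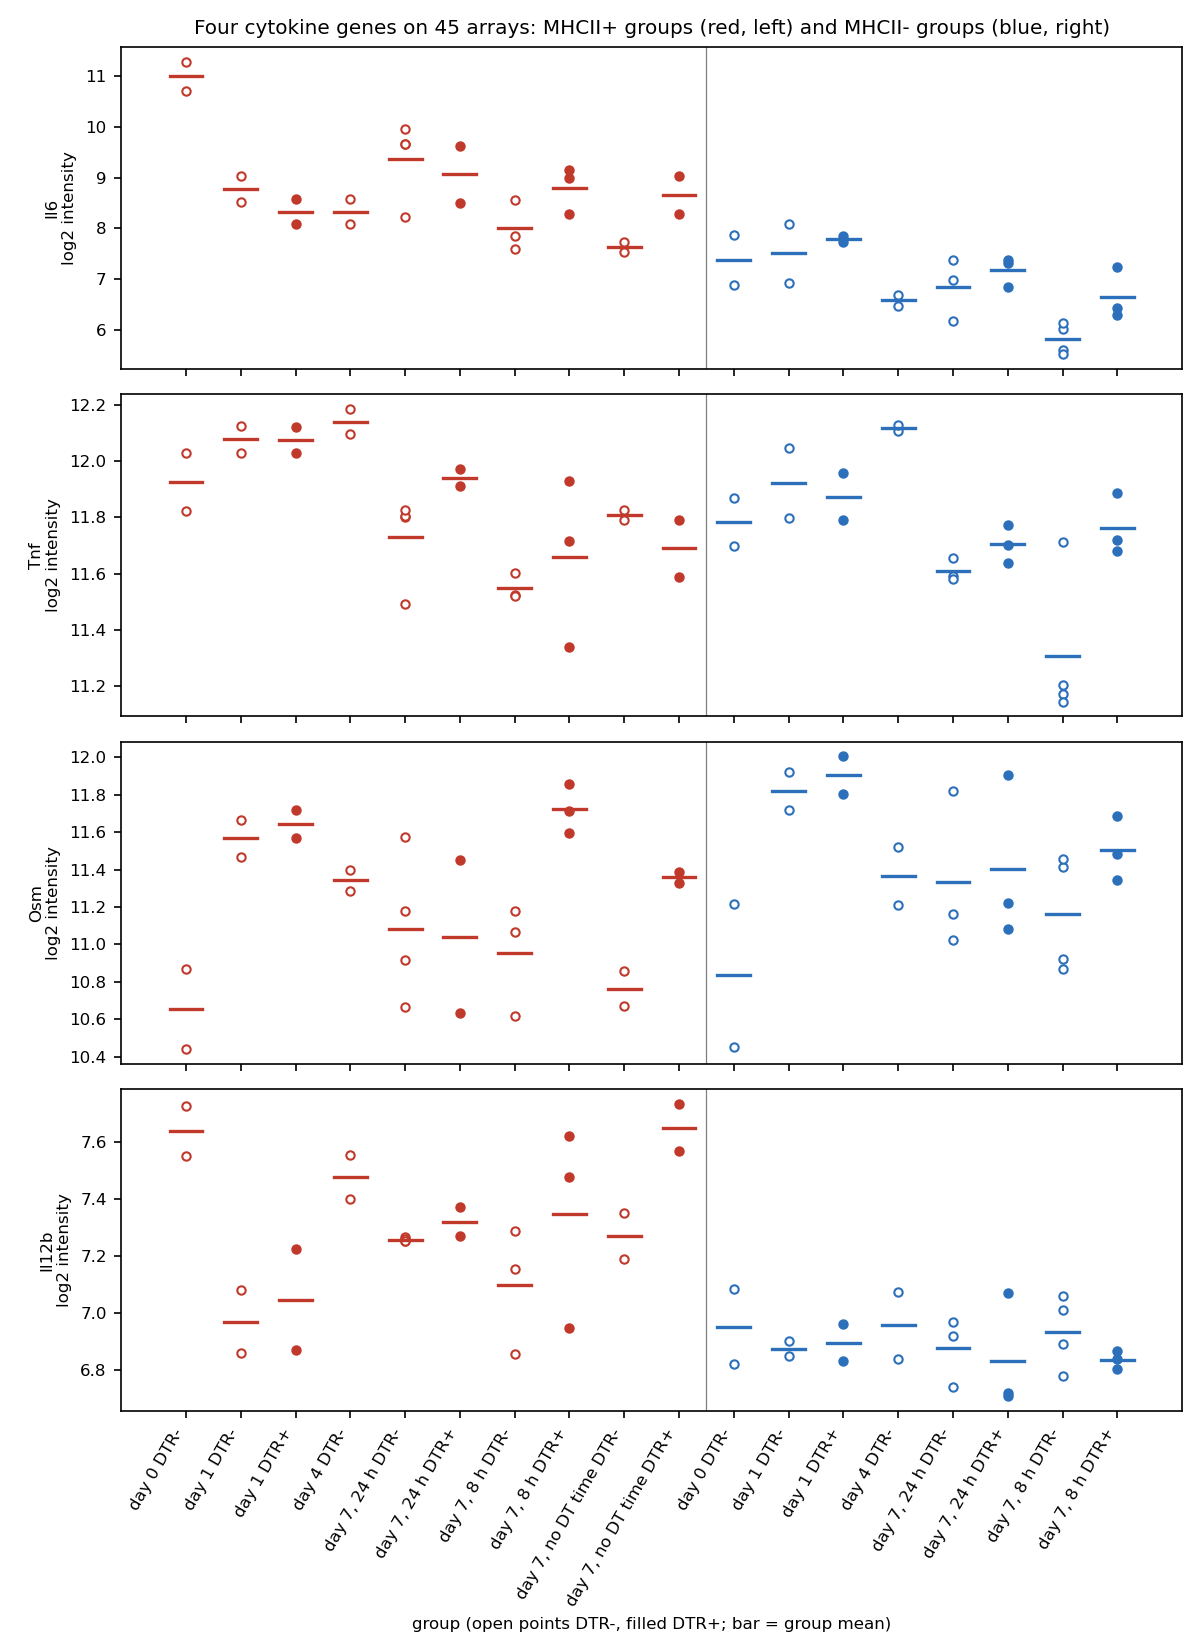
Log2 intensity (vertical axes) of Il6, Tnf, Osm and Il12b on each of the 45 arrays by group (horizontal axis); red points are MHCII+ and blue points MHCII- arrays, open points DTR- and filled points DTR+, and bars are group means. Il6 reaches 10.99 in day 0 MHCII+ cells and 5.82 in DTR- MHCII- cells of the 8 h set, while the Tnf and Osm means stay within 11.31 to 12.14 and 10.66 to 11.91.

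Il6 was higher in MHCII+ than in MHCII- macrophages in each of 8 comparisons, with no overlap between arrays, and passed the test in 6. The share of all genes without such overlap was not counted, here or in the comparisons further on. Groups of 2 arrays can stand apart without a true difference. In uninjured muscle (day 0) Il6 stood at 10.70 and 11.28 in MHCII+ arrays and at 6.89 and 7.87 in MHCII- arrays. In DTR- mice of the 24 h set it was 9.65, 9.66, 9.95 and 8.23 in MHCII+ arrays against 7.37, 6.98 and 6.18 in MHCII- arrays. In DTR- mice of the 8 h set it was 7.85, 8.57 and 7.59 against 5.60, 6.02, 5.52 and 6.14. The day 0 MHCII+ arrays were thus the highest of all 45, and the lowest values came from the MHCII- cells of the 8 h set. Over all groups, 18 of 24 MHCII+ arrays exceeded the highest MHCII- array; the MHCII+ median was 8.57 (range 7.54 to 11.28) and the MHCII- median 6.89 (range 5.52 to 8.09).

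In DTR+ mice Il6 was 9.62 and 8.50 in MHCII+ and 7.39, 7.33 and 6.85 in MHCII- arrays of the 24 h set. In the 8 h set DTR+ arrays gave 8.28, 9.15 and 8.98 in MHCII+ and 7.24, 6.43 and 6.30 in MHCII- cells. At day 4 the MHCII+ arrays read 8.08 and 8.58 and the MHCII- arrays 6.70 and 6.47. The day 1 groups lay closer together. DTR- MHCII+ arrays stood at 9.02 and 8.53 and MHCII- arrays at 8.09 and 6.93, and DTR+ MHCII+ arrays at 8.08 and 8.58 against 7.84 and 7.74 in MHCII- cells.

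The Il6 excess of MHCII+ over MHCII- cells was 3.61 ± 0.47 at day 0 (12.2-fold, limma adjusted p = 5.4e-07), where 19% of all tested genes passed. It was 2.53 ± 0.36 in DTR- mice of the 24 h set (adjusted p = 1.2e-05, 5.23% of genes) and 2.18 ± 0.36 in DTR- mice of the 8 h set (adjusted p = 2.1e-04, 2.21% of genes). DTR+ mice gave 2.15 ± 0.38 in the 8 h set (adjusted p = 3.7e-04, 7.98% of genes) and 1.87 ± 0.43 in the 24 h set (adjusted p = 0.012, 1.37% of genes). The day 4 value was 1.75 ± 0.47 (adjusted p = 0.040, 2.12% of genes). The Il6 differences of 1.27 ± 0.47 in DTR- mice (adjusted p = 0.25) and 0.54 ± 0.47 in DTR+ mice (adjusted p = 1.00) at day 1 did not pass, in comparisons where 2.45% and 2.26% of genes did; their 95% intervals ran from 0.31 to 2.22 and from -0.42 to 1.496.

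Some of these calls rested on single arrays. At day 4 the Il6 call ended when any of the 4 arrays was left out (1.49 to 2.00, adjusted p 0.10 to 0.38). The Il6 call of the 24 h DTR+ mice ended without MHCII+ replicate 1 (1.32, adjusted p = 0.34). Without the day 0 MHCII- replicate 1 array, which carried the neutrophil signal, the day 0 Il6 difference was 3.12 (adjusted p = 1.9e-04). Without the 24 h DTR- MHCII+ replicate 3 array the Il6 difference there was 2.33 (adjusted p = 1.6e-04), and without the 8 h DTR+ MHCII+ replicate 1 array the difference in its set was 2.41 (adjusted p = 4.7e-04). Without the 24 h DTR+ MHCII- replicate 3 array the Il6 difference of the 24 h DTR+ mice was 1.71 (adjusted p = 0.045).

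Markers of dendritic cells, which also express MHC class II, moved with the subset. Of 6 markers, 5 could be tested and 2 to 4 passed as higher in MHCII+ cells in each of the 8 comparisons, with none lower; Xcr1 was below the filter in all groups. The group mean over the 6 markers was 7.78 to 9.21 in MHCII+ and 6.77 to 7.64 in MHCII- groups, highest at day 0 in MHCII+ cells. At day 0 Ccr7, a homing receptor of migrating dendritic cells, was 3.81 higher in MHCII+ cells (11.21 against 7.40), Flt3, the receptor that sustains dendritic cell development, 1.96 higher (8.63 against 6.66) and Clec9a 1.56 higher (7.37 against 5.81), while Zbtb46, a transcription factor of conventional dendritic cells, differed by 0.26 (adjusted p = 0.26). At day 0, 8 of 8 neutrophil markers were lower in MHCII+ cells, and the MHCII- replicate 1 array was the highest on that list. Macrophage markers were lower there in MHCII+ cells in 4 of 6 (list means 11.95 against 12.55). The B cell list was at 7.67 in day 0 MHCII+ and 6.76 in MHCII- cells (8.02 in MHCII+ replicate 1), and its 1 tested marker was higher; the T cell list was at 8.16 and 7.60, with 1 of 4 tested markers higher. Their part in the Il6 and Il12b differences was not tested.

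**Figure D2:**
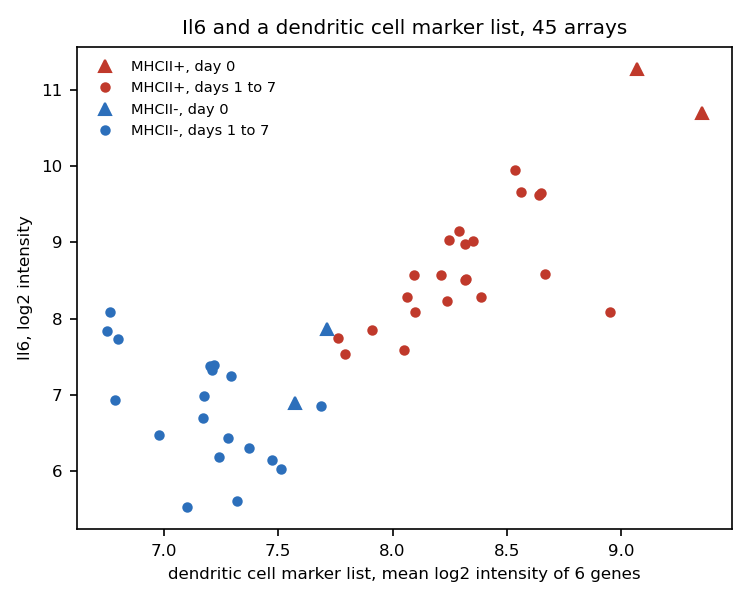
Il6 (vertical axis, log2 intensity) against the mean log2 intensity of 6 dendritic cell markers (horizontal axis), 1 point per array; red is MHCII+, blue MHCII-, triangles are day 0. The 2 day 0 MHCII+ arrays are highest on both axes, at 10.70 and 11.28 for Il6 and 9.35 and 9.07 for the list.

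Il12b, the p40 subunit, was the other member to differ by subset. It was higher in MHCII+ cells in 8 of 8 comparisons, without overlap in 5, and passed in 2. In those 2, day 0 and 8 h DTR+, 19% and 7.98% of all tested genes passed. Il12b at day 0 read 7.72 and 7.55 in MHCII+ and 7.08 and 6.82 in MHCII- arrays, a difference of 0.69 ± 0.16 (limma adjusted p = 0.0028). Day 0 MHCII+ was 1 of the 2 groups through which Il12b passed the filter, and the call held with no filter. In the 8 h DTR+ mice it read 6.95, 7.62 and 7.48 against 6.80, 6.86 and 6.84, a difference of 0.51 ± 0.13 (adjusted p = 0.016). The other 6 differences were 0.09 to 0.52 (adjusted p 0.071 to 1.00). Across all arrays, 19 of 24 MHCII+ arrays exceeded the highest MHCII- array for Il12b, although the whole range spans only 6.71 to 7.73.

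The day 0 Il12b call ended without MHCII- replicate 2 (0.55, adjusted p = 0.073) and stood at 0.82 (adjusted p = 0.0054) without MHCII- replicate 1. The 8 h DTR+ call ended without MHCII+ replicate 3 (0.38, adjusted p = 0.074) or replicate 4 (0.45, adjusted p = 0.084), and without replicate 1, the array with T cell markers, the difference was 0.71 (adjusted p = 7.8e-04). In the 24 h DTR+ mice the Il12b difference, 0.49 with all arrays (adjusted p = 0.12), passed without MHCII- replicate 3 (0.61, adjusted p = 0.032).

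Tnf and Osm passed in 0 of 8 subset comparisons each. Tnf in the 24 h DTR- mice was 11.80, 11.81, 11.49 and 11.82 in MHCII+ arrays and 11.59, 11.66 and 11.58 in MHCII- arrays, which overlap. Tnf differences ran from -0.10 to 0.24, with Tnf higher in MHCII+ cells in 7 of the 8, and Osm differences from -0.36 to 0.22, with Osm lower in MHCII+ cells in 7 of the 8. In DTR- mice of the 8 h set all 3 same-numbered pairs of samples deviated together. Without a replicate block Tnf differed there by 0.24 ± 0.12 (limma adjusted p = 0.50). With the number as a fixed block Tnf differed by 0.38 (adjusted p = 0.0053) and Il6 by 2.29 (adjusted p = 2.8e-05). That block compares same-numbered arrays only. MHCII- replicate 5 (Tnf 11.71), which has no MHCII+ partner, therefore does not enter these 2 differences. The differences changed because that array was left out, as pairing complete pairs leaves a difference of means as it is. Pairing bears on the p-values only, in a fit with 7 residual degrees of freedom.

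**Figure D3:**
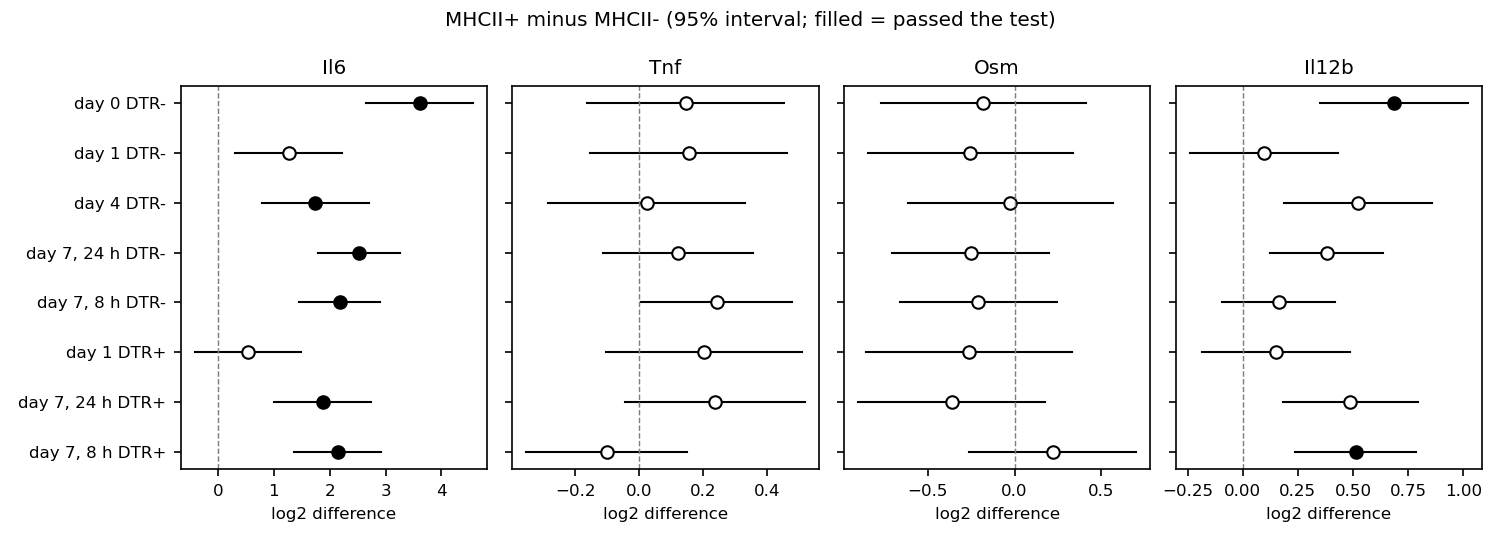
MHCII+ minus MHCII- log2 difference (horizontal axes) for the 4 genes in 8 comparisons (vertical axis); points are the differences, lines their 95% intervals, and filled points passed the test at an adjusted p under 0.05. Il6 is filled in 6 of 8 comparisons and Il12b in 2, while the Tnf and Osm points lie on both sides of 0.

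In DTR- mice the members followed different courses over the days after injury. Il6 fell from day 0 in MHCII+ cells, Osm rose in both subsets at day 1, Il12b dipped at day 1 in MHCII+ cells, and Tnf differed by no more than 0.51. Of 36 gene-by-comparison tests, 7 passed. Of all tested genes, 1.17% to 35.6% passed in the same 9 comparisons. The 7 calls lay in those where 15.4% to 35.6% did, so their count alone does not set the 4 genes apart. Age differed between day 0 and days 1, 4 and 7 (24 h), and the sort also differed between most of them, so these and the day cannot be told apart. The DT label differs as well: the day 1 and day 7 (24 h) titles name 24 h DT, while day 0 and day 4 name no DT hours. The exception is the untimed day 7 group, which shares age and sort with day 0 and names no DT hours either.

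Il6 in MHCII+ cells fell from a mean of 10.99 at day 0 to 8.78 at day 1, by 2.21 ± 0.47 (adjusted p = 4.4e-04, in a comparison where 35.6% of genes passed). It was 8.33 at day 4, a difference from day 0 of -2.66 ± 0.47 (adjusted p = 8.8e-05, 16.7% of genes). Untimed day 7 DTR- arrays read 7.54 and 7.74, a difference from day 0 of -3.35 ± 0.47 (10.2-fold lower, adjusted p = 2.2e-06, 19.2% of genes). These 3 comparisons share the day 0 arrays. The day 4 to day 1 difference in MHCII+ cells was -0.44 ± 0.47 (adjusted p = 0.59) among 15.4% of genes that passed, and the rise from day 4 to day 7 (24 h), 1.04 ± 0.41 (adjusted p = 0.18), lay in a comparison where 2.46% did. Without the 24 h replicate 4 array, at 8.23, that last difference was 1.42 (adjusted p = 0.024), and without replicate 3, the array with neutrophil markers, it was 0.85 (adjusted p = 0.34).

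In MHCII- cells Il6 went from 6.89 and 7.87 at day 0 to 8.09 and 6.93 at day 1, which overlap, and to 6.70 and 6.47 at day 4. The differences were 0.13 ± 0.47 at day 1 (adjusted p = 0.89, 25.6% of genes passed) and -0.79 ± 0.47 at day 4 (adjusted p = 0.41, 7.22% of genes). From day 1 to day 4 it differed by -0.92 ± 0.47 (adjusted p = 0.16, 24.2% of genes), and from day 4 to day 7 (24 h) by 0.26 ± 0.43 (adjusted p = 0.87, 1.17% of genes). The day 1 to day 4 difference passed with array weights (limma adjusted p = 0.0084) and with only the arrays compared (0.026). Without the day 0 MHCII- replicate 1 array, which carried neutrophil markers, the Il6 differences from day 0 were -0.36 at day 1 (adjusted p = 0.77) and -1.28 at day 4 (adjusted p = 0.26), so the sign at day 1 turned.

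Whether the day effect differs between subsets was tested in 2 comparisons added after the values were seen. The day 1 minus day 0 difference of Il6 was -2.21 in MHCII+ and 0.13 in MHCII- cells, and these differed by -2.35 ± 0.66 (adjusted p = 0.033, 4.66% of genes passed). Leaving out any 1 of 5 of the 8 arrays ended that call, the adjusted p running from 0.016 to 0.25 over the 8 fits; without the day 0 MHCII- replicate 1 array it was -1.86 (adjusted p = 0.19). The same test for day 4 gave -1.87 ± 0.66 (adjusted p = 0.15, 2.87% of genes), and -1.38 (adjusted p = 0.50) without that array.

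Osm rose at day 1 in both subsets. MHCII+ arrays went from 10.44 and 10.87 at day 0 to 11.67 and 11.46 at day 1, a rise of 0.91 ± 0.29 (1.88-fold, adjusted p = 0.014). MHCII- arrays went from 10.45 and 11.22 to 11.92 and 11.72, a rise of 0.99 ± 0.29 (1.98-fold, adjusted p = 0.011). In these comparisons 35.6% (MHCII+) and 25.6% (MHCII-) of all tested genes passed. The groups did not overlap in either subset. At day 4 Osm was 0.69 ± 0.29 above day 0 in MHCII+ cells (adjusted p = 0.11), and in the untimed day 7 cells it differed from day 0 by 0.11 ± 0.29 (adjusted p = 0.83). The MHCII+ call ended without day 0 replicate 1 (0.70, adjusted p = 0.14) or day 1 replicate 1 (0.81, adjusted p = 0.11). The MHCII- call ended without day 0 replicate 1, the array with neutrophil markers (0.61, adjusted p = 0.27), or day 1 replicate 1 (0.89, adjusted p = 0.093).

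Il12b in MHCII+ cells fell by 0.67 ± 0.16 from day 0 (7.72 and 7.55) to day 1 (6.86 and 7.08, adjusted p = 0.0020). It rose by 0.51 ± 0.16 from day 1 to day 4 (7.40 and 7.55, adjusted p = 0.032). All tested genes passed at 35.6% in the former comparison and 15.4% in the latter. The rise ended without any 1 of the 4 arrays (0.40 to 0.62, adjusted p 0.053 to 0.28). The fall starts from day 0 MHCII+ cells, 1 of the 2 groups through which Il12b passed the filter. In MHCII- cells Il12b differences between days lay between -0.08 and 0.08. Tnf was 12.10 and 12.19 in MHCII+ and 12.11 and 12.13 in MHCII- cells at day 4, above the arrays of the 24 h set with no overlap in either subset. The Tnf differences from day 4 to day 7 (24 h) were -0.41 ± 0.13 in MHCII+ (adjusted p = 0.093) and -0.51 ± 0.14 in MHCII- cells (adjusted p = 0.058), neither of which passed; without the 24 h MHCII+ replicate 3 array the former was -0.33 (adjusted p = 0.21). The Tnf difference in MHCII- cells passed with array weights (-0.49, adjusted p = 2.5e-06) and with only the arrays compared (-0.51, adjusted p = 0.025).

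Other measures moved from day 0 to day 1 too, in comparisons where 35.6% (MHCII+) and 25.6% (MHCII-) of all tested genes passed. In MHCII+ cells 5 of 5 tested dendritic cell markers fell (median -0.99), with Ccr7 down by 1.26. Of 9 tested immediate-early and heat-shock genes, which respond to cell handling among other stimuli, 4 fell in MHCII+ and 3 in MHCII- cells. The mean of the latter list was 12.48 and 12.59 in the 2 day 0 groups and 11.88 to 12.26 in the injured groups, except 12.52 in untimed day 7 DTR- cells. In MHCII- cells 7 of 8 neutrophil markers fell and 1 rose. In MHCII+ cells the B cell list mean went from 7.67 to 6.64 (1 of 1 tested marker fell), the T cell list from 8.16 to 7.72 (2 of 4 fell and 1 rose), the fibroblast list from 8.40 to 7.68 (1 of 4 fell) and the skeletal muscle list from 8.25 to 7.69 (2 of 4 fell). The macrophage list there went from 11.95 to 12.34, with 2 of 6 markers higher and none lower. The part of these in the Il6, Osm and Il12b results was not tested.

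**Figure D4:**
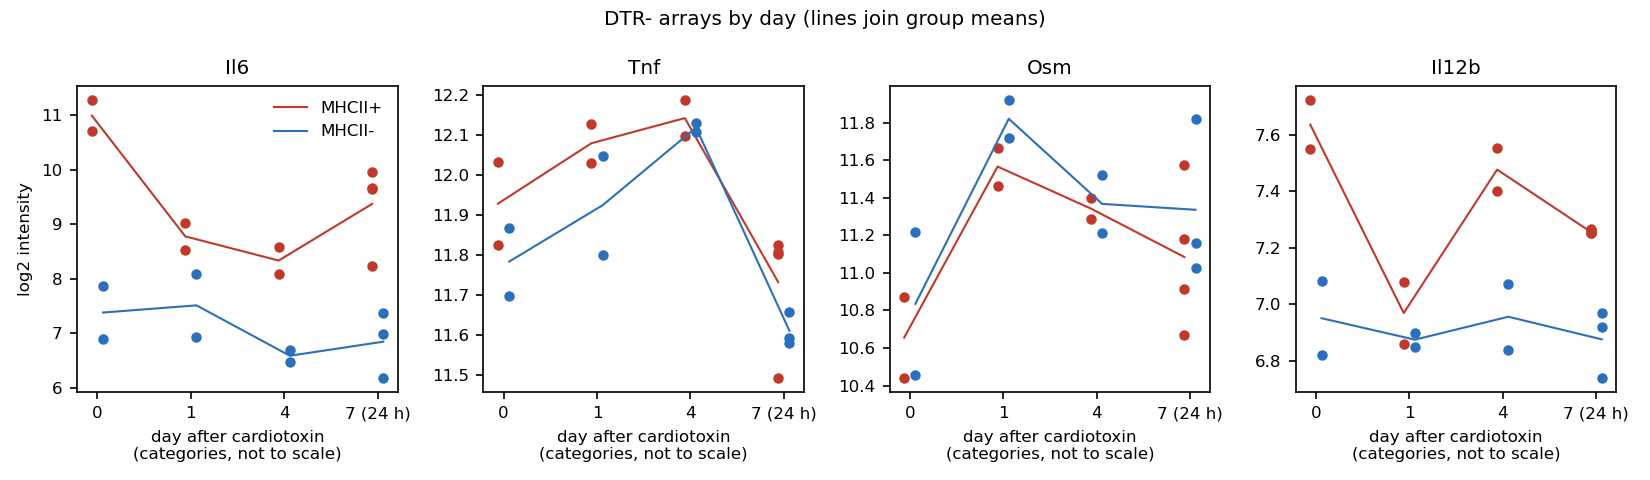
Log2 intensity (vertical axes) of the 4 genes in DTR- arrays at days 0, 1, 4 and 7 (24 h set) after cardiotoxin (horizontal axes, as categories); red is MHCII+, blue MHCII-, points are arrays and lines join group means. Il6 drops from 10.99 at day 0 to 8.78 at day 1 in MHCII+ cells, while Osm is above its day 0 level at day 1 in both subsets.

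DTR+ and DTR- groups, the comparison for depletion of regulatory T cells, gave no call for any of the 4 genes in 7 comparisons (0 of 28 gene tests by limma). At an unadjusted p under 0.05, 7 of the 28 passed, each with the higher value in DTR+ cells: Il6 and Osm in MHCII+ cells of the 8 h set, Il6 and Tnf in MHCII- cells of that set, and Il6, Osm and Il12b in the untimed set. Of the 11074 genes tested, 2044, 486 and 2457 had an unadjusted p under 0.05 in those 3 comparisons. The labels do not say whether the untimed set received DT.

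In the 8 h set, MHCII+ cells gave Osm values of 11.86, 11.60 and 11.71 in DTR+ arrays against 10.62, 11.07 and 11.18 in DTR- arrays, which do not overlap. The difference was 0.77 ± 0.24 (1.70-fold, adjusted p = 0.14), in a comparison where 0.488% of genes passed. Il6 there differed by 0.80 ± 0.38 (adjusted p = 0.26), and its arrays overlapped. Without DTR+ replicate 1, which carried T cell markers, Osm differed by 0.70 (adjusted p = 0.64) and Il6 by 1.06 (adjusted p = 0.66). In the same arrays the dendritic cell list was at 8.29 to 8.39 in DTR+ and 7.91 to 8.09 in DTR- arrays, and the macrophage list at 11.99 to 12.44 and 12.50 to 12.57, although 0 of 5 and 0 of 6 tested markers passed by limma. Their part in the Osm and Il6 values was not tested.

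In MHCII- cells of the 8 h set Il6 read 7.24, 6.43 and 6.30 in DTR+ and 5.60, 6.02, 5.52 and 6.14 in DTR- arrays, with no overlap, a difference of 0.83 ± 0.36 (adjusted p = 1.00) where 0.0181% of genes passed. Tnf read 11.89, 11.72 and 11.68 against 11.17, 11.14, 11.20 and 11.71, a difference of 0.45 ± 0.12 (unadjusted p = 4.1e-04 in the limma fit, adjusted p = 0.22). Of the DTR- arrays, replicate 5 alone overlapped the DTR+ values of Tnf; without it the difference was 0.59 (adjusted p = 0.0015).

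The untimed day 7 set of MHCII+ cells had 11.5% of all genes past the threshold. Il6 was 9.03 and 8.28 in DTR+ against 7.54 and 7.74 in DTR- arrays, Osm 11.33 and 11.39 against 10.67 and 10.86, and Il12b 7.57 and 7.73 against 7.19 and 7.35. These did not overlap, and the differences were 1.02 ± 0.47 for Il6 (adjusted p = 0.19), 0.59 ± 0.29 for Osm (adjusted p = 0.22) and 0.38 ± 0.16 for Il12b (adjusted p = 0.15). The DTR+ group here is the other of the 2 through which Il12b passed the filter. Tnf differed by -0.12 ± 0.15. When the spread was taken from these 4 arrays alone, Il6 (adjusted p = 0.0062), Osm (adjusted p = 6.1e-04) and Il12b (adjusted p = 0.022) passed, in a fit that called 3919 genes.

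Marker lists also differed between the genotypes in the untimed set. The T cell list mean was 7.79 in DTR+ and 8.17 in DTR- cells, with 2 of 4 tested markers lower; the dendritic cell list was at 8.15 and 7.78, with Clec9a 3.19 higher (10.20 against 7.01), Cd209a lower (9.22 against 10.91) and the other 3 tested markers not past the threshold; 4 of 4 tested skeletal muscle genes were lower. The handling list was at 12.10 in DTR+ and 12.52 in DTR- cells, with 1 of 9 genes lower. Their part in the Il6, Osm and Il12b values was not tested.

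At 24 h, Il6 differed by -0.31 ± 0.41 in MHCII+ (adjusted p = 0.93, 0.0542% of genes passed) and by 0.34 ± 0.38 in MHCII- cells (adjusted p = 0.89, 0.00903% of genes). Without DTR- replicate 3 the MHCII+ value was -0.12 (adjusted p = 1.00), and without DTR+ replicate 3 the MHCII- value was 0.51 (adjusted p = 0.80). Day 1 values of Il6 were -0.45 ± 0.47 in MHCII+ and 0.28 ± 0.47 in MHCII- cells, and 0% of genes passed in either; unadjusted, 25 and 154 genes did. The 95% intervals were wide: for Il6 in MHCII+ cells at 24 h, from -1.14 to 0.52. A missed threshold therefore does not show equal levels. Tnf and Osm at day 1 differed by -0.05 to 0.08 between the genotypes.

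Differences between genotype effects were tested between subsets and between the 24 h and 8 h sets. None of 16 gene tests passed by limma (0% of all genes in each of the 4 comparisons; 538 to 1319 genes had an unadjusted p under 0.05). The largest were between the 24 h and 8 h sets in MHCII+ cells, -1.11 ± 0.56 for Il6 (adjusted p = 0.43) and -0.81 ± 0.35 for Osm (adjusted p = 0.39). For Il6 the value was -0.92 (adjusted p = 0.71) without 24 h DTR- replicate 3 and -1.37 (adjusted p = 0.88) without 8 h DTR+ replicate 1; for Osm it was -0.78 (adjusted p = 0.69) and -0.74 (adjusted p = 0.88). Age and sort also differ between those sets.

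**Figure D5:**
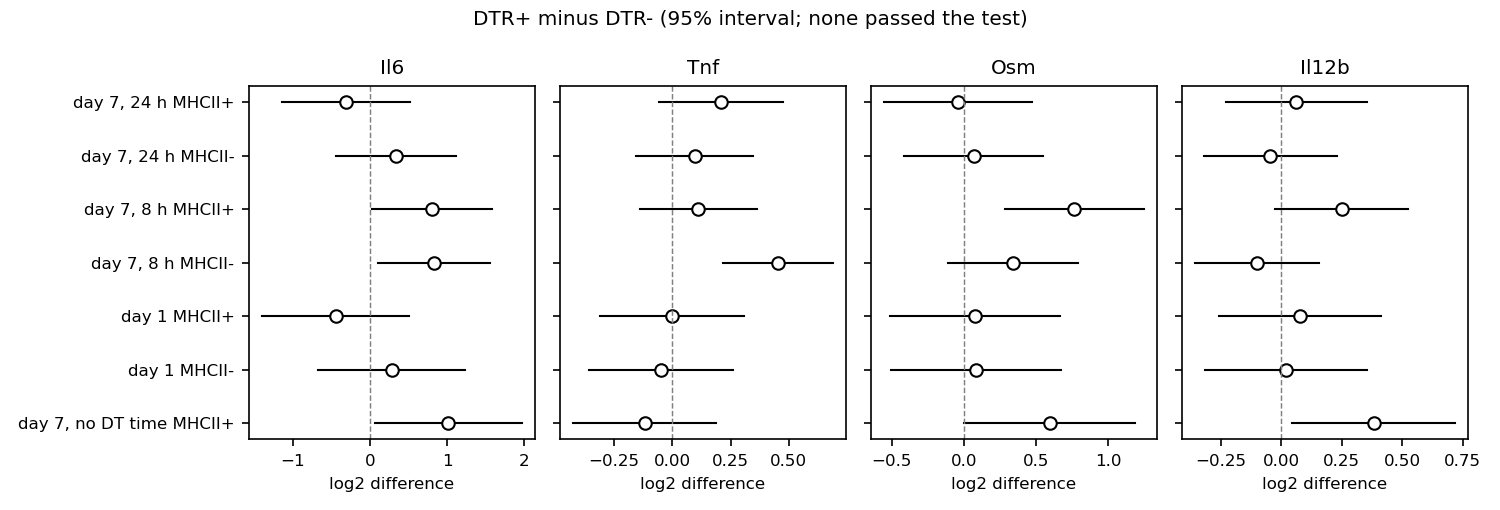
DTR+ minus DTR- log2 difference (horizontal axes) for the 4 genes in 7 comparisons (vertical axis), with 95% intervals; open points did not pass the test. The largest difference is Il6 in the untimed day 7 set, 1.02, with an interval from 0.06 to 1.97.

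The order of the 18 group means was resolved in few places. Of 17 pairs of neighbours in that order, the gap exceeded the SD of both groups in 3 for Il6, 2 for Tnf, 2 for Il12b and 0 for Osm. For Il6 the largest gap, 1.62, separated day 0 MHCII+ cells from the next group, the 24 h DTR- MHCII+ cells at 9.37 ± 0.78 (SD, n = 4), and another of 0.76 separated the lowest group, 8 h DTR- MHCII- cells at 5.82 ± 0.30 (SD, n = 4). Tnf was highest in day 4 cells, 12.14 in MHCII+ and 12.12 in MHCII-, and lowest in 8 h DTR- MHCII- cells at 11.31 ± 0.27 (SD, n = 4). Osm was highest at day 1 in MHCII- cells, 11.91 in DTR+ and 11.82 in DTR-, and lowest in day 0 MHCII+ cells at 10.66.

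Over the 18 group means, Il6 and Il12b correlated at r = 0.75 (Spearman 0.76), Il6 and Osm at -0.25 and Osm and Il12b at -0.40, as a description of groups that share sets and subsets. Within groups the residuals of Il6 and Il12b correlated at 0.00. By the rule for likeness, the 5 genes whose group means ran closest to Il6 were Heg1 (r = 0.92), Klri1, F2rl2, Spink2 and Fam78b. Those closest to Il12b were Kcnd1 (0.91), Batf3, Klrk1, Mmp25 and Sowahc, to Osm Usp16 (0.91), Fastkd1, Rars, Bambi and Ide, and to Tnf Slc5a3 (0.85), Tgif1, Zfp655, Simc1 and Bach1.

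Turning to the receptors, 4 of the 6 IL-6 family receptor genes could be tested, and Osmr stayed below the filter (group means 6.03 to 6.56). Il6ra and Il6st had group means of 10.89 to 11.78 and 10.38 to 11.58. From day 0 to day 1, 4 of 4 tested receptors fell in both subsets (median -0.83 in MHCII+ and -0.56 in MHCII- cells, against -0.01 and -0.03 for all genes). The share of all tested genes that passed there was 35.6% in MHCII+ and 25.6% in MHCII- cells. Il6ra fell by 0.82 and 0.63, Il6st by 0.45 and 0.50, and Lifr, the leukaemia inhibitory factor receptor, by 0.85 and 1.15, in MHCII+ and MHCII- cells. Il27ra, the receptor of interleukin-27, was higher in MHCII+ cells in 8 of 8 subset comparisons, by 2.60 at day 0. In the untimed day 7 set Il6ra fell by 0.70 (adjusted p = 0.012) and Il6st rose by 0.57 (adjusted p = 0.030) in DTR+ cells.

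Among the TNF genes, Tnfrsf1a passed in none of the 30 comparisons (group means 11.03 to 11.56). Tnfrsf1b rose by 0.68 between day 0 and untimed day 7 (adjusted p = 0.0052). Adam17, the protease that releases TNF, was 0.56 lower in MHCII+ than MHCII- cells at day 0 (adjusted p = 0.0021) and rose by 0.73 from day 0 to day 1 in MHCII+ cells (adjusted p = 5.5e-05). For IL-12, Il12a and Il23a, the partners of p40, were below the filter in all groups (6.38 to 6.98 and 6.49 to 6.78). Ebi3, the partner subunit of p28 and p35, fell by 0.91 from day 0 to day 1 in MHCII+ cells. Il12rb1, a receptor chain for interleukin-12 and interleukin-23, rose by 1.41 in DTR+ cells of the untimed set (adjusted p = 4.3e-09), from 7.64 to 9.05.

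Of the genes downstream of these receptors, Socs3, a feedback inhibitor induced through gp130, fell from day 0 to day 1 by 1.35 in MHCII+ and 1.25 in MHCII- cells (adjusted p = 8.5e-04 and 0.0023). Stat3 and Jak1 passed in no comparison. In the untimed set DTR+ cells Jak2 rose by 1.42 and Stat4 fell by 1.26. Of 6 factors that destabilize or stabilize cytokine transcripts, 4 fell from day 0 to day 1 in MHCII+ cells, where 35.6% of all tested genes passed. These were Zfp36 (tristetraprolin) by 0.49, Zfp36l1 by 0.74, Zfp36l2 by 0.39 and Zc3h12a (Regnase-1) by 1.11. Zc3h12a was also 0.92 higher in MHCII+ than in MHCII- cells at day 0 (adjusted p = 0.0052).

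Over the 36 pathway genes found on the array, 27 could be tested. From day 0 to day 1, 12 of the 27 passed in MHCII+ cells (1 rose and 11 fell, 44.4% against 35.6% of all genes) and 9 in MHCII- cells (3 rose and 6 fell, 33.3% against 25.6%). At day 0, 6 differed by subset (5 higher and 1 lower in MHCII+, 22.2% against 19% of all genes). DTR+ against DTR- gave 0 in 6 of 7 comparisons and 8 in the untimed set (5 rose and 3 fell, 29.6% against 11.5% of all genes).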

How the data were processed

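Each sample of sorted muscle macrophages gave 1 array of the Affymetrix type Mouse Gene 1.0 ST. The deposited values are linear intensities that the authors made with RMA and Affymetrix Power Tools, per the submitters' processing notes; for versions and the genome build, nothing is given in the sources used here. Of 24922 probe sets, 21425 had 1 symbol, 1399 several and 2098 none. Intensities were log2-transformed, with no further normalization, and the probe set with the highest mean was kept per gene. Genes with a group mean of at least 7.57 (an intensity of 189.5, the median of all values) were tested.

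Groups came from the titles. limma 3.58.1 (R 4.3.3) fitted 1 mean per group to all 45 arrays (27 residual degrees of freedom, eBayes with an intensity trend), with Benjamini-Hochberg adjustment over the 11074 genes within each comparison and a threshold of 0.05. The procedure was tested on simulated data. Figures were drawn with matplotlib 3.10.9 (Python 3.11.15).

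The 4 genes and the lists were chosen with earlier results of these data known, and the 2 comparisons of day effects between subsets were added after the values were seen. Named pathway genes are those with the lowest adjusted p per family of comparisons, up to 12, plus Il6ra, Il6st, Osmr, Tnfrsf1a, Tnfrsf1b, Il12a and Il23a; the genes most alike are the 5 with the highest Pearson correlation to each member over 18 group means. Among the 3 comparisons with 3 same-numbered pairs, the pairs deviated together most between the subsets of 8 h DTR- mice (r = 0.527, 0.48 and 0.583). The replicate number was taken as pairing there, from the data and not from the labels. It was not so taken between the genotypes in 24 h MHCII- cells (r = 0.282, 0.092 and 0.201) or the subsets of 24 h DTR- mice (0.359, 0.154 and -0.019). Alternatives were no filter, quantile normalization, median centring, an offset of 32, array weights, the mean of all probe sets, only the arrays compared, replicate blocks and leaving out each array. Arrays have no read depth; their number limits the precision. Protein sequences and an Osm promoter were not used here.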

Additional observations from a re-analysis of the deposited data

Results flagged for a closer look

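Tnf had 1 array apart from its companions in each of 2 groups of 4. In 24 h DTR- MHCII+ cells replicate 3 read 11.49 against 11.80 to 11.82, and this array also had the higher neutrophil list mean (7.29). In 8 h DTR- MHCII- cells replicate 5 read 11.71 against 11.14 to 11.20. Chance sets an array apart in about 1 in 20 such sets of 4 arrays, and 8 sets were looked at.

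The day 1 minus day 0 difference of Il6 differed between the subsets, by -2.35 (adjusted p = 0.033 in limma): it was -2.21 in MHCII+ and 0.13 in MHCII- cells. The comparison was added after the values were seen.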

How the results depend on the processing

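Of 16 calls among the 4 genes, 12 held under each alternative that keeps all arrays and 8 when any 1 array was left out; no called value changed sign. The DTR+ against DTR- count of 0 became 6 with array weights, 3 with only the arrays compared, 1 with set and number as a replicate block (Osm, 8 h set, MHCII+, 0.75, adjusted p = 0.040), and 0 to 1 when 1 array was left out. The count of 7 between days became 13 with weights and 12 with only the arrays compared (5 to 8 with 1 array left out). The count of 0 for differences of genotype effects became 1 with weights. The count of 1 for the added comparisons became 2 with weights, and 3 and 2 with the replicate blocks of set, genotype and number and of set and number (0 to 1 with 1 array left out). The weights did not fully converge. The subset count of 8 ranged from 7 to 12, reaching 12 with the fixed replicate block and 7 to 11 with 1 array left out. Outside the 8 h DTR- mice samples share only a number. There the fixed block called Il6 at day 1 in DTR- mice (1.27, adjusted p = 0.013). In 24 h DTR- mice it called Osm (-0.42, adjusted p = 0.013) and Il12b (0.38, adjusted p = 0.021). MHCII+ replicate 4 of those mice, which has no MHCII- partner, does not enter these values. The random blocks of set, genotype and number and of set and number called Il12b by subset at day 4 (adjusted p = 0.029 and 0.039) and at 24 h in DTR- (0.0093 and 0.017) and DTR+ mice (0.035 and 0.037). The first also called Il6 by subset at day 1 in DTR- mice (0.031) and the Tnf difference from day 4 to day 7 (24 h) in MHCII- cells (0.043). With only the arrays compared, the day 1 Il6 difference by subset passed in DTR- (1.27, limma adjusted p = 0.042) and DTR+ mice (0.54, 0.039). Array weights called it in DTR- mice (0.0047). The Osm difference from day 1 to day 4 in MHCII- cells (-0.45) passed with weights (0.018) and with only the arrays compared (0.0052). The Il6 call at day 4 missed the threshold with no filter (adjusted p = 0.057), centring (0.051) or the offset (0.053). With only the arrays compared, so did Il6 in 24 h DTR+ mice (0.20) and Il12b in 8 h DTR+ mice (0.19). The Il12b rise from day 1 to day 4 missed it with centring (0.058). The cause was not tested. Il12b, near the filter level in most groups, is limited by its signal.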

Other observations

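Among related genes not described above, Clcf1, a cytokine of the IL-6 family, was higher in MHCII+ cells in 5 of 8 subset comparisons, by 0.45 to 0.78. From day 1 to day 4 Ebi3 rose by 0.67 in MHCII+ and 0.71 in MHCII- cells, and Il12rb2, the signalling chain of the interleukin-12 receptor, by 0.83 and 1.62. Stat4, which acts below that receptor, rose by 0.94 from day 0 to day 1 in MHCII- cells (limma adjusted p = 0.017). Within groups, over 45 arrays, residuals of Tnf and Il12b correlated at 0.44, as a description across arrays that share sets.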
